A study of Mus musculus with 24 samples.

Results

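The serum amyloids Saa1, Saa2 and Saa3 and 5 other acute-phase or innate secreted proteins, Lcn2, Hp, Ltf, Pigr and Lbp, were followed through mammary tumor development. These 8 genes of the 37991 in the count table were listed by symbol and found by their Ensembl identifiers through GENCODE M1, after Saa2 had been seen to be higher in PyMT tissue. The difference between PyMT and FVB at each week is thus part of how they were chosen, and it is given below as a description with no test. RNA of the mammary gland or tumor was sequenced at 6, 8, 10 and 12 weeks of age, with 3 PyMT mice and 3 FVB controls per age, 24 samples in 8 groups. PyMT mice were F1 females with 1 copy of the polyoma virus middle T transgene, MMTV-PyVT 634Mul, from transgenic males and FVB females. FVB mice were females of the same FVB/N background without the transgene and served as controls at the same ages. The MMTV promoter keeps the transgene largely to the mammary epithelium. The study assigned week 6 to hyperplasia, week 8 to adenoma/MIN, week 10 to early carcinoma and week 12 to late carcinoma. In such bulk samples a change in the number of cells of a type and a change in RNA per cell cannot be told apart.

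The acute-phase response is the change in plasma proteins that follows infection, injury or cancer. It is best known from the liver, where interleukin 6 acts through gp130 and STAT3, and interleukin 1 and tumor necrosis factor act through NF-kB and C/EBP factors. Epithelia make several of the same proteins themselves, and the mammary gland secretes lactoferrin, serum amyloid and the polymeric immunoglobulin receptor into milk. The serum amyloids are small apolipoproteins of the acute phase. Lcn2, or lipocalin 2, binds bacterial siderophores and so withholds iron, Ltf (lactoferrin) binds iron directly, and Hp (haptoglobin) binds free hemoglobin. Pigr, the polymeric immunoglobulin receptor, carries IgA and IgM across epithelia, and Lbp passes bacterial lipopolysaccharide to CD14.

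Each of the 8 genes has a protein-coding model that overlaps no other gene in GENCODE M1 on mm9. Saa3 (ENSMUSG00000040026, chr7:53967368-53971046, minus strand), Saa1 (ENSMUSG00000074115, chr7:53995871-53998350, minus strand) and Saa2 (ENSMUSG00000057465, chr7:54007203-54009684, plus strand) lie side by side on chromosome 7. Lcn2 (ENSMUSG00000026822, chr2:32240153-32243317, minus strand) and Lbp (ENSMUSG00000016024, chr2:158132229-158158588, plus strand) are both on chromosome 2. Hp (ENSMUSG00000031722) is at chr8:112099030-112103072 on the minus strand, Ltf (ENSMUSG00000032496) at chr9:110921796-110945270 on the plus strand and Pigr (ENSMUSG00000026417) at chr1:132723261-132748826 on the plus strand. The counts cover whole genes, exons of every annotated transcript together.

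Saa1 and Saa2 are close copies. Their coding sequences, 369 bases each in GENCODE M1, were identical at 351 of 369 aligned bases (95.1%), and 47 of 320 windows of 50 bases in the Saa1 coding sequence occurred unchanged in that of Saa2 (14.7%). Reads from such windows cannot be assigned to one gene, so the split between Saa1 and Saa2 is uncertain and their sum is given beside them. Saa1 and Saa3 were 77.1% identical over aligned coding bases, with 9 of 320 windows shared.

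The 250 bases before the RefSeq start site were read for the 6 genes that have an entry in the promoter table (build GRCm38.p6, whose positions differ from mm9). Hp and Lbp had no entry. The 5 sequences below are shown because they hold the word TTGCNNAA, a core of C/EBP binding sites, on either strand, which is set in capitals. The 3 serum amyloid genes come first.

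Saa1, chr7:46742981-46743230, minus strand: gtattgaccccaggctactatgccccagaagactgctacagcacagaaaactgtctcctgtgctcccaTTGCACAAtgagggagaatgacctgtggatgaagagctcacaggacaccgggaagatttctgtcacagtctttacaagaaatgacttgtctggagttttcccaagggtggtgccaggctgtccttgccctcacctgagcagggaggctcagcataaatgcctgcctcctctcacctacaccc

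Saa2, chr7:46751583-46751832, plus strand: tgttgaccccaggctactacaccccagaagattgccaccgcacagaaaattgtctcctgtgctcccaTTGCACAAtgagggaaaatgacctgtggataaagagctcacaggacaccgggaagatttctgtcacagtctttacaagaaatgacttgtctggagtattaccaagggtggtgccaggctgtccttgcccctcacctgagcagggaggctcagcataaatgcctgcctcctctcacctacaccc

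Saa3, chr7:46715677-46715926, minus strand: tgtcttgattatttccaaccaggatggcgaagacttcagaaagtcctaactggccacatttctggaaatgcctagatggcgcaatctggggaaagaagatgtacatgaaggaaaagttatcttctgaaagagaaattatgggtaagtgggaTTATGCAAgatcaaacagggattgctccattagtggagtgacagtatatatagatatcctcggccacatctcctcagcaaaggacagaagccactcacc

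Lcn2, chr2:32387740-32387989, minus strand: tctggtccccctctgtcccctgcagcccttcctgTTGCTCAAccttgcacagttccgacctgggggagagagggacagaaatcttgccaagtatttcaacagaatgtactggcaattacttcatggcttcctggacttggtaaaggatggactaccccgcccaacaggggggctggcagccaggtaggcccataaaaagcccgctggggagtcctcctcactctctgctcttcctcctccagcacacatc

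Ltf, chr9:111019042-111019291, plus strand: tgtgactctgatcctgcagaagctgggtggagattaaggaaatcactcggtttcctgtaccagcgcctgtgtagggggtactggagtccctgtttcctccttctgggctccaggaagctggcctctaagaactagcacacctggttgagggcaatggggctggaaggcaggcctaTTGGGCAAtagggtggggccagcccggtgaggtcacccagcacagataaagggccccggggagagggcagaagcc

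The Saa1 and Saa2 windows were 94.8% identical and carried the same word, TTGCACAA, from 182 and 183 bases before the start. The words in Saa3, Lcn2 and Ltf differed and began 99, 216 and 75 bases before the start. Among all 32851 RefSeq promoters cut to the same length, 9.56% held a match to TTGCNNAA. The Pigr window held none. Further searches on both strands, for the STAT word TTCNNNGAA, found in 7.02% of all promoters, and for the NF-kB consensus, found in 3.9%, gave 0 matches in the 6 windows. A match is a run of letters only, and no match says only that these letters are not in this window.

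Values below are normalized counts, the deposited counts over DESeq2 size factors, with replicates 1, 2 and 3 in that order. Total counts ran from 6969375 to 13516601 per sample. A pair of libraries stood apart. Of 3799 genes of middle expression, 4.4% were at 0 in FVB week 10 replicate 3 and 2.87% in PyMT week 8 replicate 2, against at most 1.92% in the other libraries. PyMT week 8 replicate 2 also had the highest summed level of 11 mammary epithelial markers (45125) and the lowest of 8 adipocyte markers (1196) among the 12 PyMT samples. Markers of the mammary epithelium were present in every sample, at summed levels of 24626 to 45125 in PyMT and 5037 to 21982 in FVB, so the labelled tissue was present. Summed adipocyte markers went the other way, from 1196 to 9880 in PyMT and from 28328 to 95960 in FVB. Skeletal muscle markers (10 genes) varied most, from 0 to 36132 in PyMT and from 82.8 to 643594 in FVB. The highest sums were in FVB week 10 replicate 3 (643594), week 6 replicate 1 (610291) and week 12 replicate 1 (364097). The highest FVB values of Saa1, Saa2, Saa3 and Ltf given below came from these libraries. FVB replicate 1 of weeks 8 and 10, highest in Ltf at those weeks, had muscle sums of 701 and 188. PyMT week 10 replicate 3 had the highest muscle sum (32113) and the highest Saa1, Saa2 and Saa3 of its group. PyMT week 6 replicate 3 had the lowest muscle sum of its group (4428) and the highest Saa2. The part of muscle in these values was not tested.

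Saa1 and Saa2 were almost absent from FVB glands and were well expressed in PyMT tissue, most at hyperplasia. In PyMT samples Saa1 stood at 2699, 751 and 2146 at week 6, 822, 679 and 485 at week 8, 737, 429.9 and 1125 at week 10, and 228, 356 and 633 at week 12. In FVB it was between 0 and 1.54 in 10 of the 12 samples, at 6.73 in week 12 replicate 1 and at 23.5 in week 10 replicate 3, one of the libraries with many genes at 0. The groups did not overlap at any week. From the pooled counts of 7535 against 3, the week 6 ratio was 2153, with an exact 95% interval of 736 to 10442 that covers counting error only. At week 8, with 2410 counts against 2, it was 802 (222 to 6622). By means of normalized counts the ratio was 93.7 at week 10 and 181 at week 12, and 1 FVB library decided each of these values. Without FVB week 10 replicate 3 the pooled counts were 2558 against 1, a ratio of 1880 (337 to 74291). Without FVB week 12 replicate 1 no FVB count was left, and Saa1 was at least 236-fold higher, against a floor of 3 counts over the remaining FVB samples.

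Saa2 stood at 3046, 950.3 and 3501 in PyMT at week 6, at 729.8, 937 and 536 at week 8, at 707, 602 and 1157 at week 10, and at 288, 344 and 611 at week 12. FVB samples held at most 3.78, except for 25.5 in week 6 replicate 1, and all 3 were at 0 at week 12. Every PyMT sample thus lay above every FVB sample of its week. The ratio of means was 284 at week 6 and 448 at week 8, and both values rested on FVB replicate 1 of that week. Without it 1 FVB count was left at each of these weeks, and the ratio was 6645 (exact 95% interval 1192 to 262504) at week 6 and 1223 (219 to 48340) at week 8. A single count in FVB at week 10 gave a ratio of 2540 (exact 95% interval 455 to 100345), and at week 12 Saa2 was at least 345-fold higher, against a floor of 3 counts over the FVB group. The sum of Saa1 and Saa2 was 4365 ± 2307 (SD, n = 3) in PyMT at week 6 and 819.9 ± 378 at week 12, a ratio of 5.32. The lowest sum at week 6, 1701, was above the highest at week 12, 1244. Saa1 made up between 38.0% and 53.0% of the counts of both genes in each PyMT sample, with a mean of 43.0% ± 4.59 at week 6 and 48.7% ± 3.84 at week 12.

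Saa3, the serum amyloid best known from adipose tissue and macrophages, was far lower. It had a CPM of at least 1 in 8 samples only and was the one gene of the 8 that missed the filter on low counts. PyMT samples held 65.9, 55.3 and 36.9 at week 6, then 2.86, 19.7 and 10.0 at week 8, 0, 0 and 31.6 at week 10, and 0, 8.55 and 10.2 at week 12. All FVB samples were at 0 but one, week 12 replicate 1 with 2.69. PyMT lay above FVB without overlap at weeks 6 and 8, at least 54.9-fold and 9.09-fold, and the groups overlapped at weeks 10 and 12.

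Lcn2 was the steadiest of the 8 genes across the PyMT stages and stood above every control. PyMT samples held 12625, 11504 and 16148 at week 6, 9936, 14466 and 9426 at week 8, 13223, 14513 and 14073 at week 10, and 9813, 11494 and 15138 at week 12. FVB samples held 795, 346 and 522, then 720.3, 581 and 405, then 743, 468 and 535, and at week 12 they held 1299, 1505 and 982. The lowest PyMT sample of all, 9426, was far above the highest FVB sample, 1505. On the log2 scale the fitted difference, PyMT minus FVB, was 4.59 ± 0.38 (SE), 4.31 ± 0.32, 4.63 ± 0.27 and 3.32 ± 0.26 in order of age. All 3 FVB samples of week 12 lay above all FVB samples of earlier weeks.

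Ltf lay higher in PyMT than in FVB at every week, but FVB glands differed widely among themselves. PyMT samples held 23691, 11440 and 19030 at week 6, 9747, 17366 and 5967 at week 8, 7835, 7129 and 8210 at week 10, and 7878, 6475 and 8304 at week 12. FVB held 4954, 214 and 153 at week 6, 1485, 202 and 200.02 at week 8, 1798, 526 and 889 at week 10, and 5224, 2639 and 647 at week 12. Replicate 1 was the highest of the 3 FVB samples at each week, and at week 12 it was 5224 beside a lowest PyMT value of 6475. The groups did not overlap at any week. The ratio of means was 10.2, 17.5, 7.21 and 2.66 at weeks 6, 8, 10 and 12. Without FVB replicate 1 of each week these ratios became 98.4, 54.8, 10.9 and 4.60. Week 6 and week 12 differences did not pass the thresholds used for other genes. This is description only, since the choice of the genes used this contrast.

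Hp went the other way from the rest. PyMT samples held 426, 1679 and 605 at week 6, 1035, 75.9 and 1431 at week 8, 415, 1068 and 455 at week 10, and 1076, 865 and 727 at week 12. FVB samples held 1507, 1021 and 1122 at week 6, 2585, 544 and 836 at week 8, 1076, 1299 and 1477 at week 10, and 1648, 1147 and 1097 at week 12. The groups overlapped at weeks 6 and 8, while at weeks 10 and 12 each PyMT sample lay below each FVB sample, if by a narrow margin (1068 against 1076 at week 10). The fitted log2 difference was −0.45 ± 0.46 (SE), −0.60 ± 0.93, −0.95 ± 0.35 and −0.50 ± 0.22 at weeks 6, 8, 10 and 12. At week 8 the value of 75.9 came from the library with many genes at 0. Without it the ratio of PyMT to FVB means at week 8 was 0.933 instead of 0.641, and without FVB week 8 replicate 1 it was 1.23, the opposite direction.

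Pigr was near absent from FVB glands and at 518 normalized counts or more in PyMT. PyMT samples held 1143, 1034 and 1604 at week 6, 827, 5952 and 518 at week 8, 1046, 751 and 887 at week 10, and 706, 641 and 553 at week 12. FVB samples held 24.3, 19.3 and 46.7 at week 6, 20.2, 24.4 and 24.9 at week 8, 53.9, 0 and 1.56 at week 10, and 22.9, 63.0 and 30.6 at week 12. No FVB sample reached the level of any PyMT sample. Ratios of means came to 41.9, 105, 48.4 and 16.3 in order of age. The week 8 value rested on replicate 2, the PyMT library with many genes at 0 and the most epithelial markers, without which it was 29.0. At week 10 the ratio rested on FVB replicate 1. Replicates 2 and 3 held 0 and 1 counts, too few for a ratio of means without it.

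Lbp lay between 2365 and 4363 in PyMT and between 187 and 598 in FVB. PyMT samples held 4363, 2373 and 3914 at week 6, 2767, 2365 and 2713 at week 8, 3196, 3195 and 3811 at week 10, and 3289, 2828 and 3209 at week 12. In FVB it was 521, 349 and 439 at week 6, 187, 341 and 598 at week 8, 421, 254 and 332 at week 10, and 559.6, 537 and 575 at week 12. The groups did not overlap at any week. The fitted log2 difference was 3.02 ± 0.30 (SE), 2.82 ± 0.40, 3.39 ± 0.25 and 2.53 ± 0.16 at weeks 6, 8, 10 and 12.

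**Figure D1:**
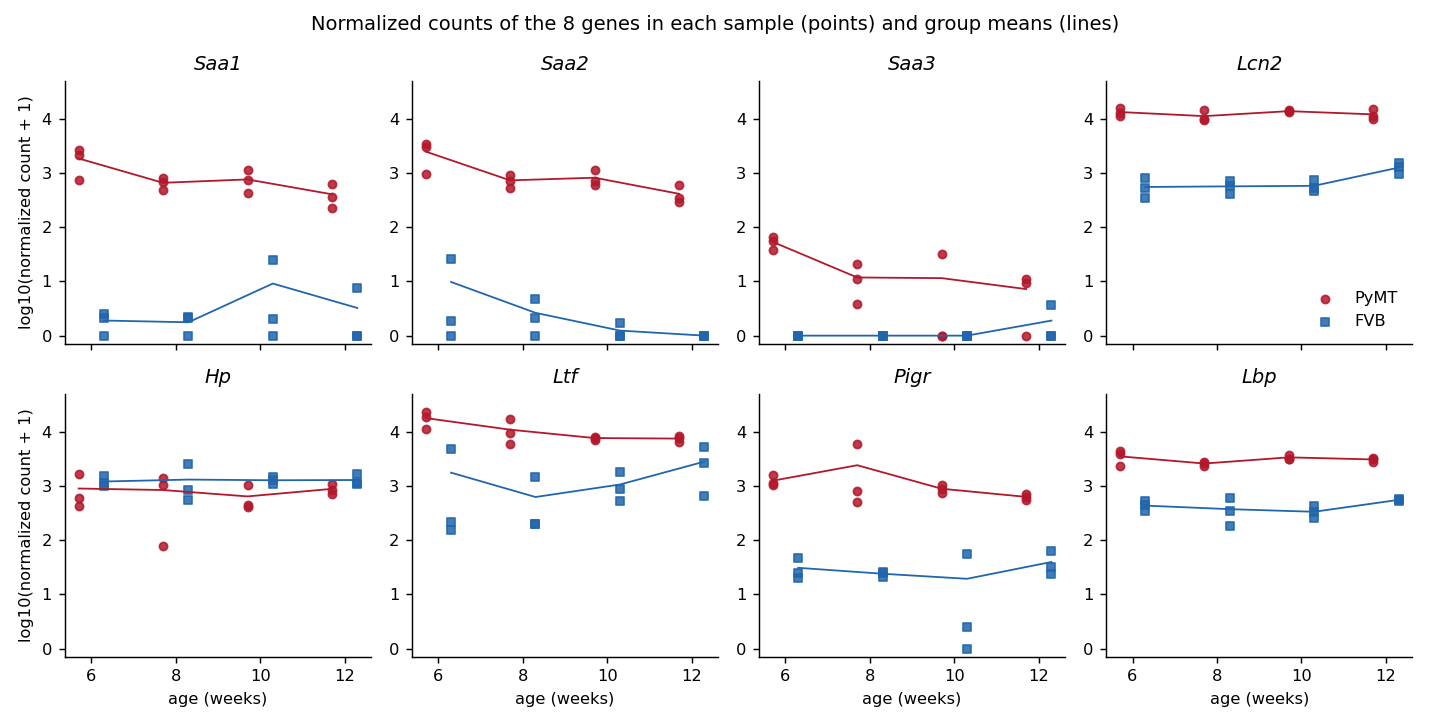
Normalized counts of the 8 genes in each of the 24 samples, as log10(normalized count + 1) on the vertical axis against age in weeks, with PyMT samples as red circles, FVB samples as blue squares and lines through the group means. The PyMT mean lay above the FVB mean at every week for all genes but Hp. Saa1, Saa2 and Saa3 were highest at week 6, and Lcn2 stayed between 9426 and 16148 in PyMT.

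By the thresholds used for DEGs (adjusted p under 0.05 in edgeR's quasi-likelihood test and a log2 fold change beyond 1), 5, 6, 6 and 5 of the 7 genes that passed the filter were higher at weeks 6, 8, 10 and 12. The share of all 14918 tested genes called higher was 3.58%, 3.57%, 4.83% and 7.75% at the same weeks. None of the 7 was called lower, beside 6.46%, 6.37%, 9.09% and 13.0% of tested genes. All 3 PyMT samples lay above all 3 FVB samples for 7, 7, 6 and 6 of the 8 genes, beside 16.2%, 18.4%, 18.9% and 21.5% of tested genes. Below all FVB samples lay none of the 8 at weeks 6 and 8 and Hp alone at weeks 10 and 12, beside 20.4%, 21.7%, 21.6% and 25.2%. Saa1 and Saa2 reached a CPM of 1 in 13 samples each, every PyMT sample and a single FVB library. They thus passed the filter only through their PyMT level. These genes were picked on this very contrast, so the counts describe the list and carry no test.

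Epithelial and fat markers differed between the genotypes, so each gene was also set against the epithelial markers of its own sample. The epithelial marker score, the mean of log2(normalized count + 1) over 11 markers, was higher in PyMT by 1.12 to 1.76 at the 4 weeks, and the adipocyte score differed by −2.52, −4.21, −4.64 and −4.30. Of the epithelial markers, Krt19 (median 1240 in PyMT against 2009 in FVB) and Krt7 (411 against 482) went the other way. The differences that remain below hold for this set of markers. After the epithelial score was subtracted, Saa1, Saa2, Lcn2, Pigr and Lbp still lay higher in all PyMT than in all FVB samples of the same week at all 4 weeks. The difference that remained at week 12 was 6.31 for Saa1, 7.37 for Saa2, 2.01 for Lcn2, 2.86 for Pigr and 1.22 for Lbp on the log2 scale. With FVB counts at or near 0, the values of Saa1 and Saa2 depend on the 1 added before the log. They are no measure of size. Ltf differed without overlap at week 10 only (1.27). Its differences at weeks 6, 8 and 12 were 3.86, 3.17 and 0.60, each with overlapping groups. Saa3 differed without overlap at week 6 only (4.59), and its groups overlapped at weeks 8, 10 and 12 with differences of 1.76, −0.09 and 0.37. The Saa3 values depend on the added 1 likewise. Hp lay lower without overlap at weeks 6, 10 and 12, with differences of −1.78, −2.88 and −1.79. How far the mix of cells accounts for any of these differences was not tested.

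**Figure D2:**
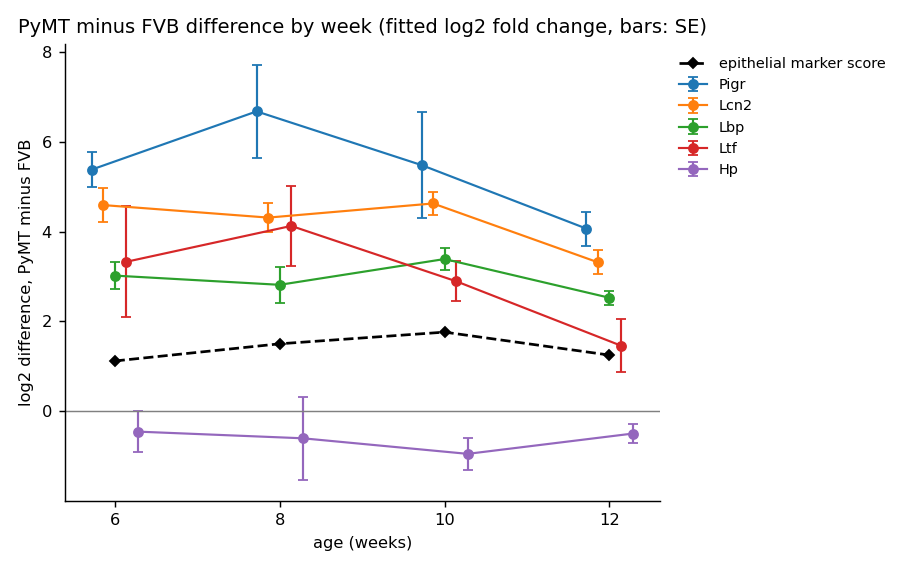
Fitted log2 difference between PyMT and FVB (vertical axis) for Pigr, Lcn2, Lbp, Ltf and Hp at each week (horizontal axis, weeks), with bars for the SE of the fit, and the difference in the epithelial marker score as a dashed line. Pigr, Lcn2 and Lbp lay above the dashed line at all 4 weeks, Ltf came close to it at week 12 (1.46 against 1.25), and Hp lay below 0.

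Markers of neutrophils, hepatocytes and B or plasma cells had low counts, while those of macrophages were well counted. Neutrophils store both Lcn2 and Ltf in their granules. S100a8, which neutrophils also hold, had 304 counts in PyMT against 1 in FVB at week 6. Other secreted innate genes went the other way at week 6. S100a9, Camp and Ngp had 0 counts in PyMT against 23, 9 and 4 in FVB. Of 10 neutrophil markers Ly6g and Stfa2l1 were at 0 in all 24 samples, only 2 had a mean of at least 10, and the summed level ranged from 0.94 to 154 in PyMT and from 0 to 167 in FVB. Of 10 hepatocyte markers 1 had a mean of at least 10, with sums of 0 to 92.8 in PyMT and 0 to 83.4 in FVB. No B or plasma cell marker of 7 had such a mean. Of 8 macrophage markers 7 had a mean of at least 10, and their sums ran from 1990 to 4516 across PyMT samples and from 2355 to 5392 across FVB samples. The macrophage score differed between PyMT and FVB by 0.03, 0.69, 0.11 and −0.19 at the 4 weeks. The part of any of these cell types in the levels of the 8 genes was not tested.

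Levels were compared between genes per kilobase of exon. At week 6 in PyMT, Ltf (6584 ± 2255 normalized counts per kb, SD, n = 3), Lcn2 (5832 ± 1053), Saa2 (4097 ± 2230) and Saa1 (3083 ± 1659) led, and each overlapped the next. Lbp (735 ± 216), Hp (673 ± 505) and Pigr (313 ± 75.2) followed, and Saa3 was last at 99.2 ± 27.6. By week 12 Lcn2 (5277 ± 1183) stood clear of Ltf (2754 ± 349), and Ltf stood clear of Saa2 (679 ± 283), while Saa2, Saa1, Hp and Lbp overlapped in turn between 644 and 679. In FVB the order was another one. Hp had the highest mean at weeks 6, 8 and 10 with 906, 984 and 956 per kb, and at week 12 it overlapped Ltf (966 ± 227 against 1035 ± 837).

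The stated reason for choosing the genes was higher Saa2 in PyMT tissue, not a change with stage within a genotype. The same PyMT values enter the comparisons of weeks, and earlier results were known. The p-values below are thus not established as independent of the choice, least of all for Saa1 and Saa2. From week 6 to week 12 in PyMT, Saa1, Saa2, Saa3, Ltf and Pigr were each lower in all 3 later samples than in all 3 earlier ones, 4 of the 7 tested genes and Saa3. The same held for 8.31% of all 14918 tested genes. The ratio of the week 6 mean to the week 12 mean was 4.60 for Saa1, 6.03 for Saa2, 8.45 for Saa3, 2.39 for Ltf and 1.99 for Pigr, and it was 1.11 for Lcn2, 1.14 for Lbp and 1.02 for Hp. The exact two-sided permutation test of 3 against 3 gives 0.1 for each of the 5 genes without overlap, the smallest p that it can give. In the edgeR fit of all 24 samples, the log2 change was −2.60 ± 0.65 (SE, adjusted p = 0.21) for Saa2 and −2.20 ± 0.67 (adjusted p = 0.37) for Saa1. For Ltf it was −1.26 ± 0.97 (adjusted p = 0.93) and for Pigr −0.99 ± 0.75 (adjusted p = 0.92). None of the 7 tested genes passed, nor did any of the 14918, of which 1004 had an unadjusted p under 0.05. Saa3, which missed the filter, was not tested in this fit.

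The call for Saa2 depended on the fit. With the 12 PyMT samples alone edgeR gave −2.56 ± 0.43 (adjusted p = 0.032), and limma voom with sample quality weights gave −2.70 ± 0.31 for Saa2 (adjusted p = 1.1e-04) and −2.32 ± 0.35 for Saa1 (adjusted p = 0.0026). Over all genes these fits called 15 and 38, and DESeq2's Wald test called 97, none of them among the 8. Skeletal muscle markers moved the same way as Saa1, Saa2 and Saa3, from sums of 4428 to 36132 in PyMT at week 6 to 266 to 1171 at week 12. Muscle sums in PyMT were 44.1 to 76.5 at week 8 and 0 to 32113 at week 10. The part of muscle in these changes was not tested. The separation was there by week 8 for Saa2 and Saa3. Saa2 went from 2499 ± 1361 (SD, n = 3) to 734 ± 200.4 and Saa3 from 52.7 ± 14.7 to 10.8 ± 8.45, both without overlap, as did 5.46% of tested genes. Lcn2 (−0.14 ± 0.29), Lbp (−0.19 ± 0.29) and Hp (−0.00095 ± 0.67) had small fitted changes from week 6 to week 12 relative to their standard errors. Between weeks 8 and 10, the step from adenoma/MIN to early carcinoma, Lbp alone of the 8 separated, from 2615 ± 218 to 3401 ± 355 (log2 change 0.39 ± 0.29, adjusted p = 1.00). Pigr separated between weeks 10 and 12, from 895 ± 148 to 633 ± 77.1. Such separations were seen for 4.06% and 3.45% of tested genes in the same direction.

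Within FVB the 12-week glands had the most Lcn2. Its mean was 554 ± 226 (SD, n = 3) at week 6 and 1262 ± 264 at week 12 without overlap, and the log2 change was 1.16 ± 0.29 (SE, adjusted p = 0.59) in edgeR. DESeq2 and limma voom called it, with adjusted p of 0.023 and 0.040. Lbp also lay higher at week 12 than at week 6 in all samples (436 ± 86.1 against 557 ± 19.2, SD, n = 3, log2 change 0.32 ± 0.30, adjusted p = 1.00). Among all tested genes 7.15% were higher in this way. No gene passed the edgeR test of week 12 against 6 in FVB, and 625 had an unadjusted p under 0.05. The PyMT minus FVB difference of Lcn2 changed between weeks 6 and 12 by −1.29 ± 0.41 on the log2 scale (edgeR adjusted p = 0.92), and none of the 7 tested genes passed this test or that of week 10 against week 8.

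**Figure D3:**
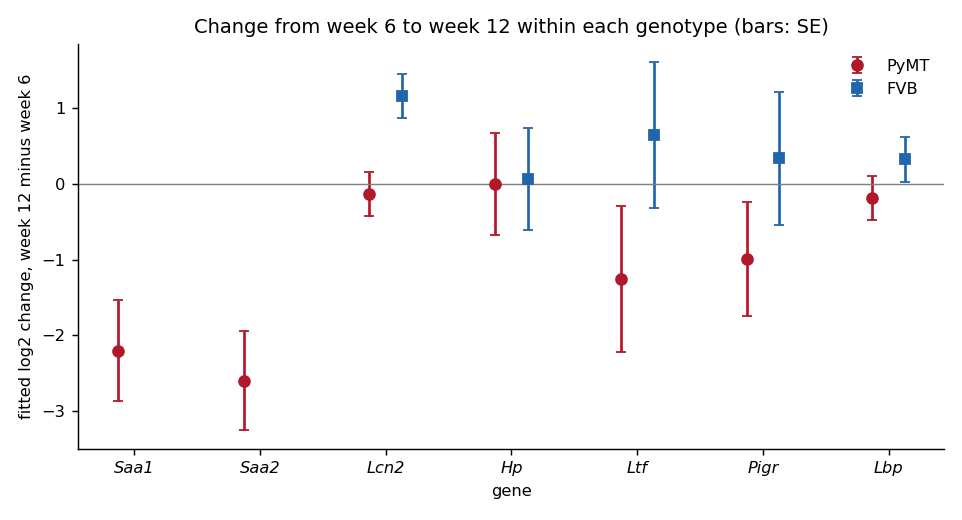
Fitted log2 change from week 6 to week 12 (vertical axis) for the 7 tested genes (horizontal axis) in PyMT (red circles) and FVB (blue squares), with bars for the SE. Saa1 and Saa2 are shown for PyMT only, since FVB counts were near 0. Saa1 (−2.20) and Saa2 (−2.60) lay lowest, and Lcn2 in FVB (1.16) lay highest. None passed the adjusted threshold in this fit.

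Some of the genes varied together from one PyMT sample to the next. Correlations of log2(normalized count + 1) were computed for 38 pairs, 28 over the 12 PyMT samples and 10 over the 12 FVB samples among the 5 genes detected there. In PyMT 3 pairs had a Benjamini-Hochberg adjusted p under 0.05 for r by permutation. Saa1 and Saa2 gave r = 0.97 and rho = 0.95 (permutation p = 1e-05, the smallest possible, adjusted p = 0.00038; rho p = 2e-05), and r = 0.95 without the 2 samples farthest from the median. How reads that fit both of these close copies were counted was not given in the sources used here. Saa2 with Ltf gave r = 0.84 and rho = 0.82 (permutation p = 0.00061 and 0.0018, adjusted p = 0.012 and 0.033), with r = 0.56 without the 2 farthest samples, and Saa1 with Ltf gave r = 0.78 and rho = 0.75 (permutation p = 0.0032 and 0.0069, adjusted p = 0.033 and 0.038), with 0.71 without them. Ltf with Pigr passed by rho only (r = 0.70, rho = 0.76, permutation p = 0.0092 and 0.0062, adjusted p = 0.058 and 0.038). So did Saa2 with Saa3 (r = 0.67, rho = 0.78, permutation p = 0.016 and 0.0045, adjusted p = 0.078 and 0.034). Saa2 with Pigr also passed by rho only (r = 0.44, rho = 0.78, permutation p = 0.16 and 0.0038, adjusted p = 0.32 and 0.034). Hp and Pigr moved in opposite directions (r = −0.84, rho = −0.64, permutation p = 0.0067 and 0.030, adjusted p = 0.051 and 0.096), which fell to r = −0.46 without PyMT week 8 replicate 2. In FVB, Lcn2 and Ltf gave r = 0.77 and rho = 0.78 (permutation p = 0.0035 and 0.0039, adjusted p = 0.033 and 0.034), with 0.67 without the 2 farthest samples.

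When each week's mean was removed, so that only differences among mice of one age remained, none of the 38 pairs passed. The values were then r = 0.93 for Saa1 and Saa2 (permutation p = 0.0039, adjusted p = 0.078), 0.71 for Saa2 and Ltf (p = 0.012 by permutation, adjusted p = 0.11), 0.57 for Saa1 and Ltf (permutation p = 0.048, adjusted p = 0.20) and 0.81 for Lcn2 and Ltf in FVB (permutation p = 0.022, adjusted p = 0.16). Without the 2 libraries with many genes at 0, 8 pairs passed, among them Pigr with Saa2 (r = 0.81), Ltf (r = 0.79) and Saa1 (r = 0.74), and Hp with Lbp (r = −0.81, rho = −0.71, permutation p = 0.0027 and 0.018, adjusted p = 0.017 and 0.068), a pair that gave r = −0.04 over all 12 PyMT samples.

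**Figure D4:**
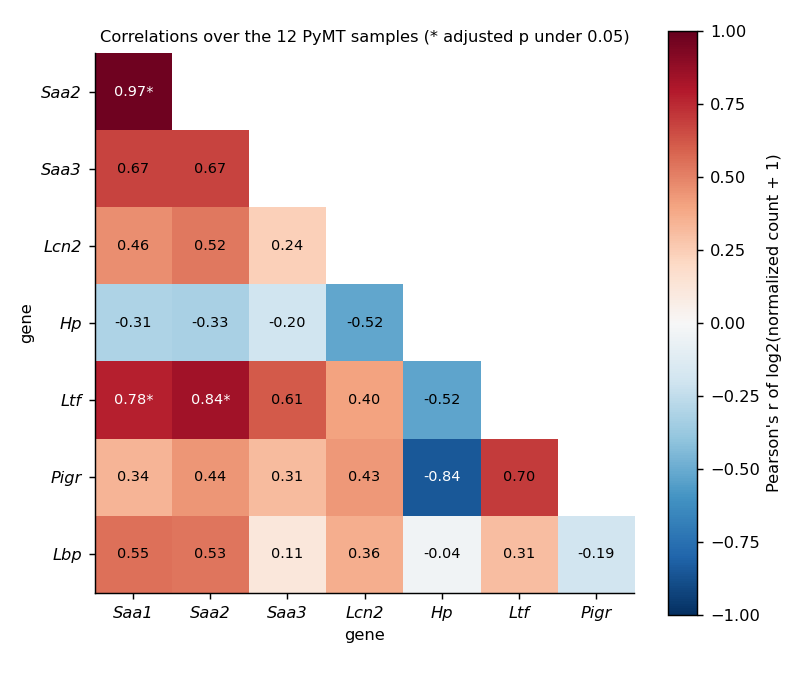
Pearson's r between each pair of the 8 genes over the 12 PyMT samples, on log2(normalized count + 1), with genes on both axes, color from −1 to 1 and an asterisk for an adjusted p under 0.05. Saa1, Saa2 and Ltf form the 3 marked pairs, and Hp has negative values with all 7 others.

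The genes were also set against the marker scores of 4 cell types, 52 relations in all. One passed, Lbp with the macrophage score in FVB (r = 0.87, permutation p = 0.00021, adjusted p = 0.011; rho = 0.70, permutation p = 0.014, adjusted p = 0.24), and r was 0.74 without the 2 farthest samples. In PyMT none passed. The closest were Saa3 with the skeletal muscle score (r = 0.75, rho = 0.70, permutation p = 0.0069 and 0.014, adjusted p = 0.13 and 0.24) and Hp with the adipocyte score (r = 0.74, rho = 0.55, permutation p = 0.0075 and 0.066, adjusted p = 0.13 and 0.37), with 0.66 and 0.68 without the 2 farthest samples.

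Over all 24 samples, the tested genes with the pattern most like Saa2 by Pearson's r were Wap (0.99), the milk protein whey acidic protein, Ankrd22 (0.98) and B4galt1 (0.97), an enzyme of lactose synthesis. Lcn2 was followed most closely by Xbp1 (0.99), a transcription factor of the secretory pathway, Acsl4 (0.98) and Tram1 (0.97). For Ltf they were St6galnac6 (0.92), Csn3 (0.91), which encodes kappa-casein, and Trf (0.90), a symbol that 2 genes of the table carry. For Pigr they were Aqp5 (0.95), Rhpn2 (0.94) and Enpp3 (0.94), and for Lbp Col9a1 (0.98), 1600029D21Rik (0.97) and Surf4 (0.97). Saa1 was nearest to Rpl7a (0.97), Dusp7 (0.96) and Tfrc (0.96), Saa3 to Stx3, Pip4k2c and Neu1 (0.80 each), and Hp to Otop1, Snora28 and Proca1 (0.85, 0.85 and 0.84). Each of these values spans both genotypes. Over the 12 PyMT samples alone, Wap was the nearest gene to Saa1 (0.92) and, behind Lao1 (0.93), the next nearest to Saa2 (0.88). Pigr was then nearest to Atp1b1 (0.91), Dmkn (0.89) and B2m (0.88), and Ltf to Arhgef19 (0.91). These are descriptions across genes, with no test.

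The wider pathway was read from 6 lists of 119 other genes, of which 116 matched 1 gene each and 72 passed the filter on low counts. The lists follow general knowledge of the pathway, and the PyMT against FVB difference was tested by edgeR's quasi-likelihood test. The lists were chosen with earlier results of these data known. The p-values and calls below are thus not established as independent of that choice. At weeks 6, 8, 10 and 12, 9, 6, 9 and 8 of the 72 were higher in PyMT and 11, 9, 14 and 18 were lower. The share of all tested genes called in either direction was 10.0%, 9.95%, 13.9% and 20.7%. The median log2 fold change of the 72 at week 12 was −0.18, beside 0.00 over all tested genes.

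Of 24 genes listed as acute-phase plasma proteins beside the 8 genes, 9 were tested, and 2 were higher and 6 lower in PyMT at week 12. A2m (alpha-2-macroglobulin, a protease inhibitor) was not counted once in FVB at weeks 6, 8 and 10 and was at least 93.1-, 63.9- and 146-fold higher in PyMT (adjusted p = 0.011, 0.017 and 0.0080). Its week 12 samples ranged from 36.0 to 778 in PyMT and from 0 to 1.26 in FVB (adjusted p = 0.0037), a call that limma voom did not make (adjusted p = 0.33). A2m thus passed the filter on low counts only through its PyMT level, and its adjusted p-values are description only. Alb, near 0 in PyMT, and S100a8, near 0 in FVB at the weeks given, may have passed only through the other genotype. Cp (ceruloplasmin, the copper carrier) was 6211 ± 1415 (SD, n = 3) against 2961 ± 541 at week 12, a log2 fold change of 1.12 ± 0.23 (SE, adjusted p = 0.0086), and it passed at weeks 6 and 10 too. At week 12 it fell short of the fold threshold without PyMT replicate 2 (0.92) or without FVB replicate 2 (0.94). Orm1, an orosomucoid made by liver and fat, was lower at all 4 weeks, with 31.3 ± 12.1 against 665 ± 306 at week 12 (log2 fold change −4.36 ± 0.45, adjusted p = 0.00045). Complement C3 was also lower at all 4 weeks, with a log2 fold change of −2.30 ± 0.46 at week 12 (adjusted p = 0.0075). Serping1 (−2.25 ± 0.56, adjusted p = 0.020), the C1 inhibitor, and Fgg (−2.73 ± 0.75, adjusted p = 0.029), fibrinogen gamma, were lower at week 12, but Fgg lost its call when any 1 of 5 of the 6 samples was left out and in the fit of all 24 samples (adjusted p = 0.14), and Serping1 when any 1 of 3 was. Of the proteins that fall in an acute phase, Alb (albumin) was at 0 in PyMT and between 33.6 and 73.1 in FVB at week 12 (at least 58.2-fold lower, adjusted p = 0.0045), and Rbp4, a vitamin A carrier also made by fat, had a log2 fold change of −4.38 ± 0.49 (adjusted p = 0.00058). Adipocyte markers moved in the same direction as Orm1, C3 and Rbp4, and their part in these differences was not tested.

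The cytokines that drive the response had low counts, and Il6, Il1b and Osm missed the filter. Il6 had 17, 6, 0 and 3 counts over the 3 PyMT samples at weeks 6, 8, 10 and 12 and 0, 0, 0 and 2 in FVB. Il1b had 46, 48, 58 and 115 counts in PyMT against 3, 13, 171 and 2 in FVB, a ratio of 47.1 at week 12 (exact 95% interval 12.8 to 394). Its 171 counts in FVB at week 10 all came from replicate 1, and those in PyMT at week 6 nearly all from replicate 1. Osm had 57, 21, 7 and 9 counts in PyMT against 0, 4, 38 and 4 in FVB, and all 57 of week 6 came from PyMT replicate 2. Tnf passed it but was not called (log2 fold change 2.15 ± 1.17 at week 12, adjusted p = 0.21). Among 15 tested cytokine and receptor genes, Il1rap, the co-receptor for interleukin 1, was higher at all 4 weeks, at 682 ± 19.4 against 254 ± 98.4 (SD, n = 3) at week 12 (1.47 ± 0.27, adjusted p = 0.0058). Il6st, which encodes gp130, was lower at all 4 weeks (1472 ± 254 against 4789.8 ± 269 at week 12, −1.66 ± 0.18, adjusted p = 0.00057), and so were Lifr (−1.67 ± 0.17, adjusted p = 0.00044) and Il1r1 (−1.87 ± 0.30, adjusted p = 0.0029) at week 12. The fit of all 24 samples did not call Il1r1 (adjusted p = 0.087). Osmr had a log2 fold change of 0.79 ± 0.17 (adjusted p = 0.010), short of the fold threshold, and Il6ra of −0.76 ± 0.41 (adjusted p = 0.21).

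Of 17 tested JAK-STAT, NF-kB and C/EBP genes, Cebpa, a factor of fat and liver cells, was lower at all 4 weeks (−2.39 ± 0.29 at week 12, adjusted p = 0.00089). Stat3 passed at week 10 (4092 ± 334 against 1979 ± 477 normalized counts, SD, n = 3, log2 fold change 1.09 ± 0.23, adjusted p = 0.016). At week 12 it was 0.82 ± 0.19 (adjusted p = 0.015), under the fold threshold, as was Cebpb (0.96 ± 0.24, adjusted p = 0.021). Socs3, a target and inhibitor of the pathway, gave −0.34 ± 0.29 (adjusted p = 0.44), Cebpd 0.21 ± 0.32 (adjusted p = 0.67) and Nfkbiz 0.31 ± 0.24 (adjusted p = 0.38) at week 12.

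Among 11 tested receptors and binding partners of the 8 proteins, none was higher at week 12 and 3 were lower. These were Lrp1 (−1.94 ± 0.29, adjusted p = 0.0020), a receptor for lactoferrin among many ligands, at all 4 weeks, Scarb1 (−1.23 ± 0.20, adjusted p = 0.0027), which binds serum amyloid, and Ighm (−2.78 ± 0.43, adjusted p = 0.0025), the IgM heavy chain that Pigr carries. Scarb1 fell short of the fold threshold when scaled by library size only (−0.90). Cd14, to which Lbp passes lipopolysaccharide, was higher at week 6 alone, at 893 ± 230.3 against 305 ± 21.9 (SD, n = 3), with a log2 fold change of 1.55 ± 0.25 (adjusted p = 0.0069), and it is named after its values were seen. Igj, the joining chain of polymeric antibodies, was 33.2 ± 41.8 against 213 ± 96.3 (SD, n = 3) and was not called (adjusted p = 0.10). Igha did not match a gene in the annotation used.

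Of 18 other secreted innate proteins, 5 were higher and 3 lower at week 12. Chi3l1, a chitinase-like protein, was 10708 ± 1942 against 620 ± 273 (SD, n = 3) (4.16 ± 0.35, adjusted p = 0.00029) and Wfdc18, a small secreted protein of the whey acidic protein family, 4072 ± 422 against 129 ± 19.9 (5.03 ± 0.22, adjusted p = 4.1e-05), and both were higher at all 4 weeks. S100a8, a calprotectin subunit, had 212 counts in PyMT against 3 in FVB at week 12 (ratio 57.9, exact 95% interval 19.6 to 283, adjusted p = 0.0062), and Cxcl1 76 against 3 (ratio 20.8, interval 6.84 to 103, adjusted p = 0.038), a call that most alternatives did not keep. Rnase4 was lower at all 4 weeks (−2.40 ± 0.29 at week 12, adjusted p = 0.00088), with Wfdc2 (−2.22 ± 0.45, adjusted p = 0.0084) and Ang (−3.77 ± 1.07, adjusted p = 0.032) lower at week 12. Wfdc2 lost its call in the fit of all 24 samples (adjusted p = 0.063). Ang lost its call there (adjusted p = 0.085), with the replicate block (adjusted p = 0.071) and when any 1 of 4 of the 6 samples was left out (adjusted p up to 0.091).

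**Figure D5:**
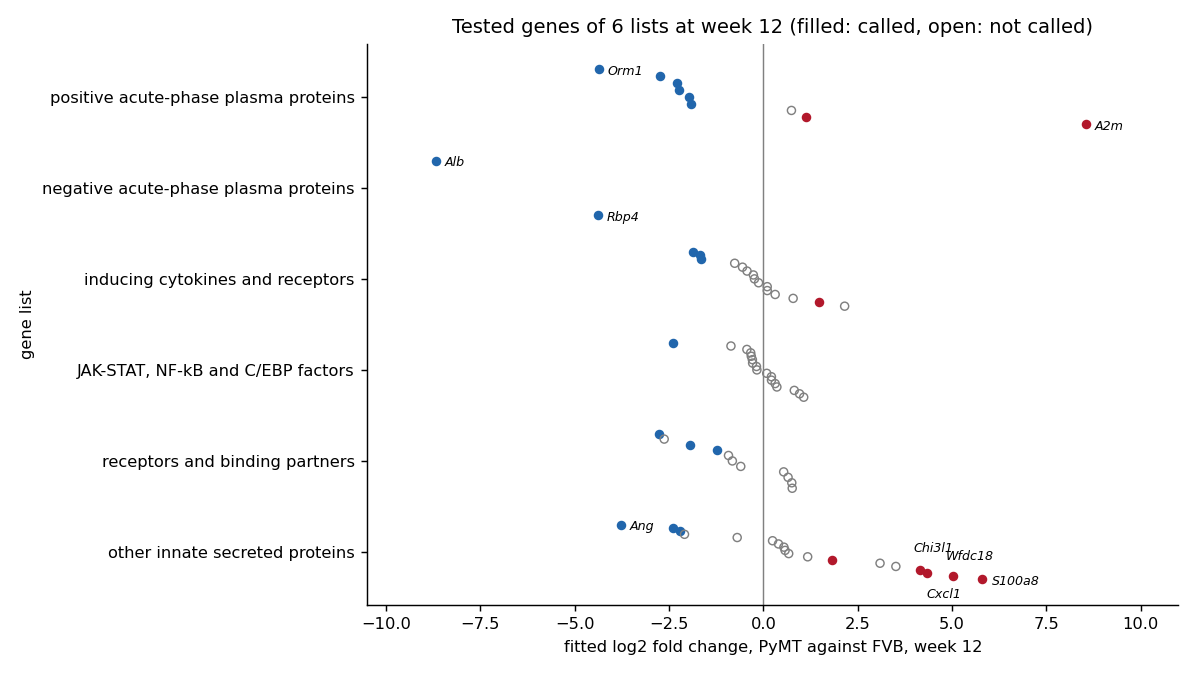
Fitted log2 fold change of PyMT against FVB at week 12 (horizontal axis) for the 72 tested genes of 6 lists (vertical axis), with filled points for genes called higher (red) or lower (blue) and open points for the others. Points are spread within a list only for legibility. Called genes stood on both sides of 0, 8 higher and 18 lower, with A2m farthest right and Alb farthest left. The fitted value of Alb, at 0 in all PyMT samples of week 12, depends on the prior count and is no measure of size.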

How the data were processed

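Total RNA of snap-frozen mammary gland or tumor was depleted of ribosomal RNA and sequenced from directional libraries, and the authors aligned the reads to mm9 with GSNAP and deposited raw HTSeq counts per Ensembl gene, 1 column per sample. The strand setting and annotation release were not given in the sources used here. Gene symbols, positions and exon lengths come from GENCODE M1, and promoters from RefSeq. The 8 genes, the pathway and marker lists and the motifs were chosen with earlier results of these data known.

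The 14918 genes whose CPM reached 1 in 12 samples or more were tested with edgeR 4.0.16 quasi-likelihood fits (TMM, R 4.3.3). PyMT was compared with FVB in the 6 samples of a week, and weeks within a genotype, or the change of the PyMT minus FVB difference, in all 24 samples. DEGs needed a Benjamini-Hochberg adjusted p below 0.05 with an absolute log2 fold change over 1, and the change of a difference needed the adjusted p only. SE is the absolute log2 fold change over the square root of F. Normalized counts are counts over size factors of DESeq2 1.42.0. Against a group at 0 counts the ratio was set against 3 counts over the group and is a lower bound, and against 1 to 3 counts it is the ratio of pooled counts with an exact 95% interval. Such intervals cover counting error only. Replicates are separate mice by the study's description, and all 24 pairs within groups differed by more than sampling noise. Correlations used log2(normalized count + 1) and 100000 permutations (SciPy 1.17.1). Named pathway genes were, per list, up to 4 in each direction with the largest log2 fold change among those called at week 12 with a mean of at least 20 in the higher group, any called at all 4 weeks, and always Il6, Il6ra, Il1b, Tnf, Osm, Osmr, Stat3, Socs3, Cebpb, Cebpd, Nfkbiz, Igha and Igj. The genes most like each of the 8 were the 3 with the highest Pearson's r over 24 or 12 PyMT samples. In simulated data of the same genes and depths, 200 genes were changed 4-fold. The test recovered 131 of them for PyMT against FVB at week 12 and 110 for week 12 against 6 within PyMT, with 6 and 8 wrong calls. Alternatives were other size factors, other filters, DESeq2, limma 3.58.1 voom, other sample sets, the replicate block and leaving out 1 sample. Ratios under TMM and with 1 sample left out were added after the data were seen.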

Additional observations from a re-analysis of the deposited data

How the results depend on the processing

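Of the pathway genes, 20 were called at week 6 and 13 to 22 with 1 sample left out. At week 8, 15 were called, and 25 with no filter on low counts, 24 by DESeq2, 26 by limma voom, 24 in a fit of all 24 samples and 4 to 16 with 1 sample left out. The count was 4 without PyMT week 8 replicate 1, 5 without FVB week 8 replicate 2 and 7 without FVB week 8 replicate 3. No change of the 7 tested genes between weeks was called in the edgeR fit of 24 samples. For PyMT week 12 against 6, limma voom called 2 and the fit of 12 samples 1, and for week 8 against 6 limma voom called 1 (Saa2, adjusted p = 0.0031). For FVB week 12 against 6, DESeq2 and limma voom each called 1 (Lcn2), and DESeq2 called 1 for week 12 against 10 (Lcn2, adjusted p = 0.047). Of 38 gene pairs 4 passed, and 0 passed after removing each week's mean, 8 with a pseudocount of 5 and 8 without the libraries with many genes at 0. Of 52 relations with marker scores 1 passed, and 0 did after removing each week's mean and 0 with a pseudocount of 5. The sign of near-zero changes was not stable. Hp in PyMT, week 12 against 6, was 0.038 with library size only, 0.024 with no filter, 0.023 with a CPM of at least 1 in 3 samples, 0.52 by limma voom, 0.012 in the fit of 12 samples and −0.33 to 0.78 with 1 sample left out. The same change of Lcn2 was −0.33 to 0.040 with 1 sample left out, and the PyMT against FVB difference of Cebpd at week 12 was −0.068 to 0.58. The cause of these differences was not tested. Same-numbered PyMT and FVB samples deviated together only weakly (12 correlations from −0.03 to 0.18, 4 of them over 0.1, 6 samples best with their own number), so the numbers were not taken to pair the mice. With the replicate block 19, 15, 23 and 25 pathway genes were called at weeks 6, 8, 10 and 12, 0 changes of the 7 tested genes between weeks were called, and Cxcl1 and Ang were no longer called. With 3 mice a group, and under 30 counts of the serum amyloids in any FVB library, small changes in FVB were not detectable at this depth.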
